A study of Homo sapiens with 12 samples.

Results

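The replication-dependent histone genes supply the core histones H2A, H2B, H3 and H4 and the linker histone H1 that package newly copied DNA. They are intronless or nearly so, lie in clusters, and are transcribed mainly in S phase with the help of the coactivator NPAT. Their mRNAs usually end in a conserved stem-loop bound by SLBP and carry no poly(A) tail, although some copies also make adenylated transcripts that run past the stem-loop. The libraries were enriched with oligo(dT), which selects adenylated RNA, although some RNAs without a poly(A) tail were counted too. A lower level of a histone mRNA cannot be told apart from a smaller adenylated share of it. Nor can fewer cells in S phase be told apart from less histone RNA per cell. Genes were taken by their symbols, as H1-1 to H1-6 and all symbols of the forms H2AC, H2BC, H3C and H4C followed by a number. This gave 66 of the 60645 gene names, namely 6 of H1, 16 of H2A, 17 of H2B, 13 of H3 and 14 of H4.

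RNA was sequenced from HEK-293T, a human embryonic kidney line, in which ARID1A had been knocked out; its protein belongs to the nucleosome remodeller SWI/SNF, also called BAF (the line is named 12KO). All 6 groups carry that knockout. The cells overexpressed an empty vector, ARID1A WT or ARID1A ΔIDR1b, which lacks a segment of a disordered region, and on top of that EWS-FLI1, the fusion protein of Ewing sarcoma, or an empty vector (EV). The labels give 2 µg of pcDNA-EWS-FLI1 plasmid and 48 h of growth after transfection. The 3 ARID1A states are called no ARID1A, WT and ΔIDR1b below, and each of the 6 groups has 2 libraries. Nothing in the labels says that repeats came from separate cultures, so p-values measure the spread between these libraries, which may be technical. All groups share 1 estimate of this spread because each has 2 libraries. The 2 libraries of WT with EWS-FLI1 differed most, with a chi-square per degree of freedom of 13.6 against 3.13 to 6.73 in the other groups. The shared estimate may be too small for that group.

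Libraries held 11702251 to 14445379 counts. ARID1A was at 147 to 165 CPM (counts scaled to an equal library size) in the 4 libraries of no ARID1A, at 1843 to 2291 in WT and at 2608 to 2878 in ΔIDR1b, so the ARID1A RNA level also differed between the 2 rescued states. FLI1 was at 1688 to 3675 CPM with EWS-FLI1 and at most 0.1 CPM with EV. All 8 embryonic kidney markers passed the filter on low counts, while no endothelial or heart muscle marker did, with sums between 0 and 0.90 and between 0 and 0.38 CPM. Some markers of other tissues did pass, namely 2 of 2 for liver (1 called lower in ΔIDR1b with EV), 2 of 3 for fibroblasts (1 called higher in ΔIDR1b with either vector) and 1 of 3 for blood (not called). In ΔIDR1b against no ARID1A, 3 kidney markers were called higher and 1 lower with EV, and 2 and 1 with EWS-FLI1. Of 3 tested markers of 293 lines, 2 were called lower there with either vector. Of 4 epithelial markers, 1 and 2 were called higher in WT, and 0 and 1 in ΔIDR1b, with EV and EWS-FLI1.

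The 66 genes fall into 4 clusters on GRCh38. One cluster on chromosome 1 (chr1:149782689-149887965) holds 11 genes, and 3 on chromosome 6 hold 34 (chr6:25726063-26285638), 5 (chr6:27125897-27147562) and 16 (chr6:27807479-27893891). The stem-loop was searched in GENCODE 29 transcripts, which 62 of the 66 genes have, and was found in 26 of them. The other transcripts often hold the coding part alone. The search allowed either pyrimidine or purine at a few positions, and 6 different stem-loop words were found. The commonest was shared by 13 genes of H2A, H2B and H3, and the 7 H4 genes used 2 words of their own. The sites below show the gene with the most counts in the set, and the H3, H2A and H4 genes with the most counts in their class. They also show a gene whose counted model stops close to the loop, and the 1 gene with a word of its own among the H3 genes. Capitals mark the stem-loop.
H2BC21 (chr1:149886183-149886208, minus strand): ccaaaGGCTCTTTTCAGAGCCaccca
H3C10 (chr6:27810511-27810536, plus strand): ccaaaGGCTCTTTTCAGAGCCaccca
H2AC6 (chr6:26124664-26124689, plus strand): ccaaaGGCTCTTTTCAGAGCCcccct
H4C11 (chr6:27824454-27824479, plus strand): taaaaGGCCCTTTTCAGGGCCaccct
H2BC7 (chr6:26199963-26199988, plus strand): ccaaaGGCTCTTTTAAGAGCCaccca
H3C6 (chr6:26225591-26225616, plus strand): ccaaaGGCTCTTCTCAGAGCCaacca

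The gene models used for counting reach very different distances past these sites. The models of H2BC21, H2AC6, H3C10 and H3C6 run on for 1729, 1128, 769 and 1862 bases, whereas those of H2BC7 and H4C11 stop 5 and 6 bases past the loop. Among the 26 genes with a stem-loop found, the 12 whose models pass it by over 100 bases held 58.0% of all histone counts. Genes without a found stem-loop, such as H2BC11 with 831 counts, could not be scored, so the full share may be higher. A transcript that is adenylated far past the loop adds counts to a long model, and adds few to a model that stops at the loop, so levels of different histone genes are compared below only with this in mind.

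Most members were close to silent in these libraries. Only 26 of the 66 passed the filter (3 of H1, 6 of H2A, 9 of H2B, 5 of H3 and 3 of H4), 40 did not, and 8 of these had no count at all. The 40 genes together held 2.96% of the histone counts. Some of the 40 are near-identical copies, whose counts are uncertain: all 50-base windows of H3C14 and H3C15 (100%) and 97.5% of those of H4C14 occur in another histone gene of the set. Per kilobase of model and averaged over the 12 libraries, H1-2 (linker histone H1.2) was highest at 23.8 CPM per kilobase, followed by H2BC12 at 22.6, H2BC21 at 19.3, H2BC5 at 7.81 and H3C10 at 6.19. H2BC21 alone gave 6618 of the 19302 histone counts.

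Summed over all 66 genes, histone RNA was highest without ARID1A, intermediate in WT and lowest in ΔIDR1b. The 4 libraries of no ARID1A had 285 and 285 CPM with EV and 262 and 221 with EWS-FLI1. The WT libraries had 90.4 and 74.8 CPM with EV and 75.8 and 57.4 with EWS-FLI1. The ΔIDR1b libraries had 38.1 and 35.5 CPM with EV and 37.9 and 34.7 with EWS-FLI1. The ranges of the 3 states did not overlap. With EV, WT was at 29.01% and ΔIDR1b at 12.9% of no ARID1A, and with EWS-FLI1 at 27.6% and 15.02%. Leaving out H2BC21 moved these shares to 34.0% and 18.8% with EV and to 31.7% and 20.4% with EWS-FLI1. These sums are a description without a test.

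**Figure D1:**
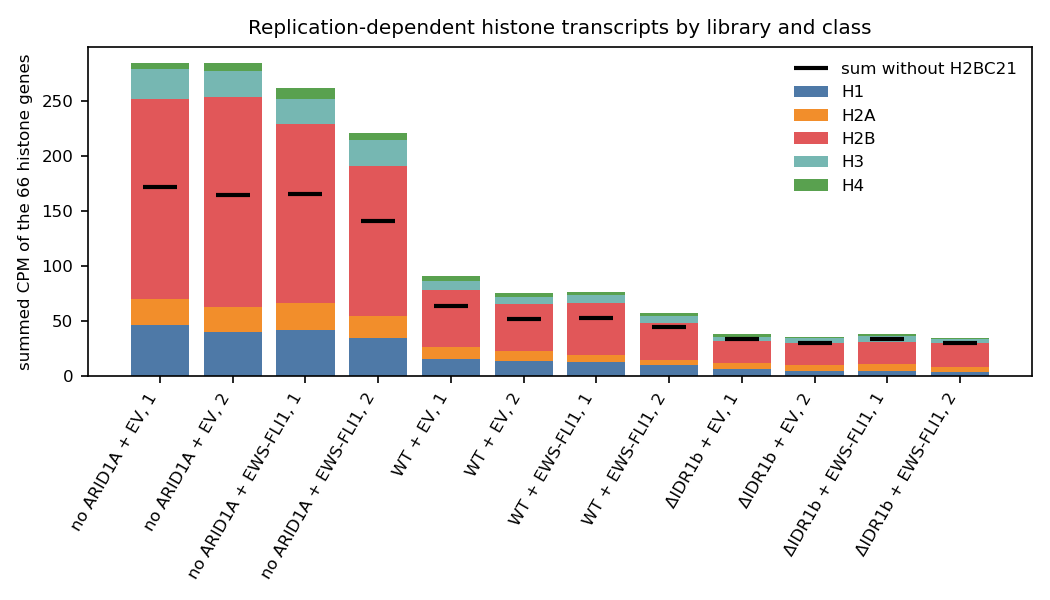
Summed CPM of the 66 histone genes (y axis, from 0) in each of the 12 libraries, stacked by histone class, with a black dash for the sum without H2BC21. The no ARID1A libraries reach 221 to 285 CPM, WT 57.4 to 90.4 and ΔIDR1b 34.7 to 38.1, and H2B is the largest class in every bar.

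With EV the group means kept this order in each class and each cluster, to different extents. With EWS-FLI1, H2A in ΔIDR1b was at 99.9% of WT. With EV, ΔIDR1b was at 12.8% of no ARID1A for H1, 23.6% for H2A, 10.7% for H2B (21.2% without H2BC21), 14.8% for H3 and 30.03% for H4. The chromosome 1 cluster was at 6.5% (15.6% without H2BC21), and the 3 chromosome 6 clusters at 14.8%, 32.9% and 16.4%. The cluster at 32.9% is that of 5 genes, in which H2BC12 gave most of the counts. The 40 genes below the filter were also lower, with 5.58 and 6.58 CPM in sum without ARID1A and 2.85 and 2.07 in ΔIDR1b, both with EV.

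Each gene was tested with edgeR's quasi-likelihood F-test, with p-values adjusted after Benjamini and Hochberg over 20377 genes and a threshold of 0.05 for a call. In WT against no ARID1A with EV, 9 of the 26 tested histone genes fell and 0 rose, while 5.19% of all genes tested were called lower and 6.5% higher. With EWS-FLI1, 13 fell and 0 rose (8.36% of all genes lower, 9.72% higher). In ΔIDR1b against no ARID1A, 16 fell with EV (16.8% of all genes lower, 16.4% higher) and 18 fell with EWS-FLI1 (17.9% lower, 18.1% higher), and 0 rose in either. In ΔIDR1b against WT, 8 fell with EV (13.4% of all genes lower, 11.1% higher) and 4 with EWS-FLI1 (10.1% lower, 8.48% higher), again with 0 higher. The median log2 differences of the 26 genes in these 6 comparisons, in the same order, were -0.98, -1.90, -2.65, -2.33, -1.11 and -0.64, against medians of all genes between -0.02 and 0.02. Leaving out 1 library, which also lets more histone genes pass the filter, moved some of these medians by over 1.5 times. The median of WT with EV was -1.52 without WT EV replicate 1 and -0.57 without replicate 2. That of ΔIDR1b against WT with EV was -0.71 without WT EV replicate 1 and -0.67 without ΔIDR1b EV replicate 2, and with EWS-FLI1 it was -0.40 without WT EWS-FLI1 replicate 1 and -0.32 without ΔIDR1b EWS-FLI1 replicate 2. A gene that passed the filter only through the libraries where it is high had to be lower elsewhere, so these counts and medians describe the 26 genes and not the 66. Without the filter, 58 histone genes could be tested, and 11, 13, 17, 18, 8 and 4 of them fell. Their medians were nearer to no change, at -0.80, -1.31, -1.54, -1.94, -0.57 and -0.35. The shares of all genes called in that fit are not given here, so these counts have no background beside them. The comparisons share groups, so they are not independent of one another.

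Across vectors, all 4 libraries of no ARID1A were above all 4 of WT for 13 of the 26 genes, against 13.5% of all genes tested. For 20 of the 26 they were above all 4 ΔIDR1b libraries (23.3% of all genes). All 4 WT libraries were above all 4 of ΔIDR1b for only 5 of the 26, namely H2BC18, H2BC21, H3C1, H3C2 and H1-2. For that step the share of all genes was not computed, and the other tested histone genes overlapped between WT and ΔIDR1b or lay the other way. The 3 genes H2BC21, H2BC18 and H1-2 had no overlap at either step, a pattern that 3.21% of all genes show.

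**Figure D2:**
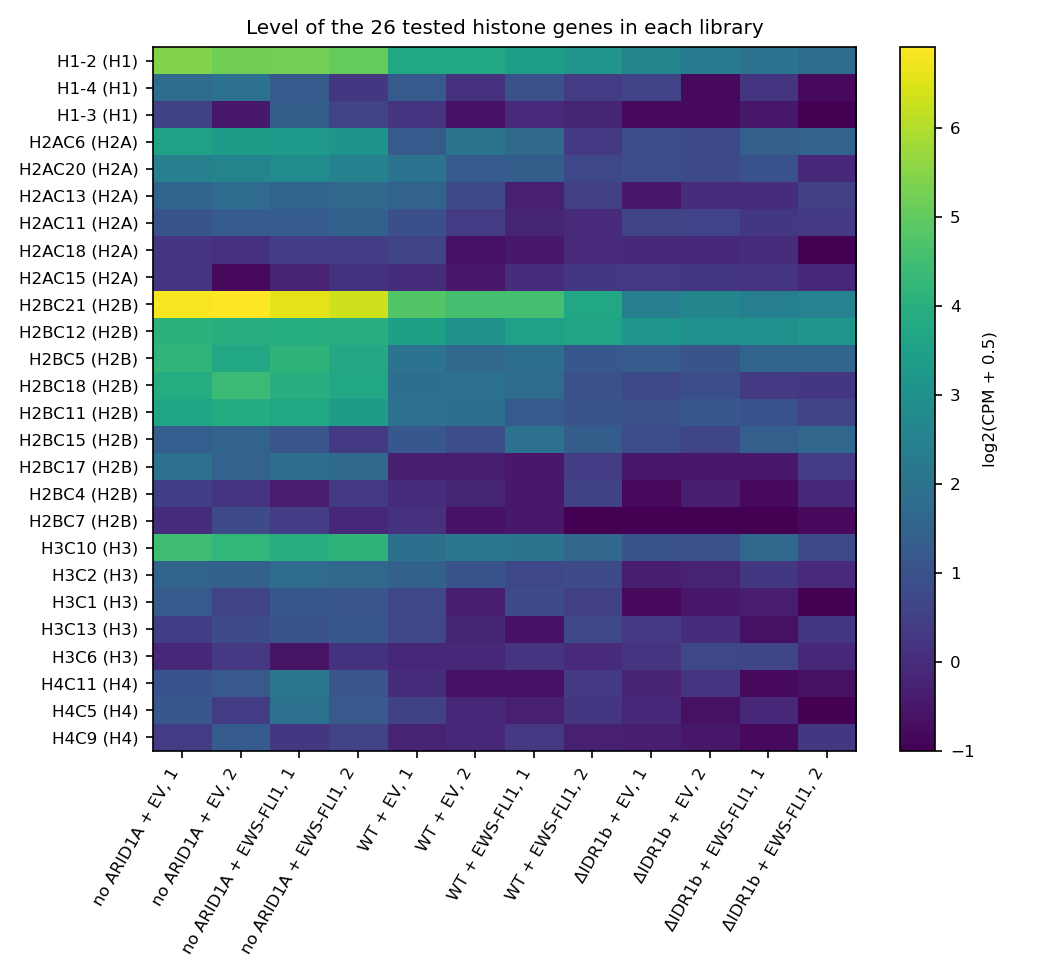
Level of the 26 tested histone genes (rows, with their class) in the 12 libraries (columns) as log2(CPM + 0.5), by colour. H2BC21 and H1-2 are brightest in the 4 no ARID1A columns and darken through WT to ΔIDR1b, and H3C10 is brightest there with WT and ΔIDR1b overlapping, whereas H2BC12 ranges from 7.29 to 16.5 CPM.

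Among the H2B genes, H2BC21 had the highest mean CPM over the 12 libraries. It was at 113 and 120 CPM (EV) and 96.2 and 80.1 CPM (EWS-FLI1) without ARID1A. In WT it was at 27.3 and 23.3 CPM (EV) and 23.5 and 12.6 CPM (EWS-FLI1), and in ΔIDR1b at 4.68 and 5.65 CPM (EV) and 4.81 and 5.14 CPM (EWS-FLI1). The 3 states are far apart, and within a state only the second WT library with EWS-FLI1 stands well below its partner. H2BC21 fell by 2.20 ± 0.17 on the log2 scale (SE) in WT with EV (edgeR adjusted p = 2.2e-11) and fell by 4.49 ± 0.20 in ΔIDR1b (adjusted p = 2.8e-18). ΔIDR1b was also below WT, by -2.29 ± 0.21 with EV and -1.86 ± 0.21 with EWS-FLI1.

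H2BC18, also on chromosome 1, was at 12.5 to 20.3 CPM without ARID1A, 1.44 to 3.44 in WT and 0.70 to 1.36 in ΔIDR1b. Its model shares 9.84% of its exonic bases with FCGR1A, and reads in shared bases were not counted. H2BC5 was at 12.9 to 17.5 CPM without ARID1A, at 1.74 to 3.50 in WT and at 1.57 to 2.50 in ΔIDR1b, so here the 2 rescued states overlapped. H2BC11 went from 9.94 to 14.1 CPM without ARID1A to 1.59 to 3.35 in WT and 1.04 to 1.72 in ΔIDR1b. H2BC17 had 2.32 to 3.35 CPM without ARID1A and 0.21 to 0.83 in the other 8 libraries. Each of these 4 genes fell in all 4 comparisons with no ARID1A. For H2BC17 the call in WT with EWS-FLI1 was lost without WT EWS-FLI1 replicate 1 (adjusted p = 0.087) or no ARID1A EWS-FLI1 replicate 1 (0.056), and that in ΔIDR1b without ΔIDR1b EWS-FLI1 replicate 1 (0.075).

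H2BC12 was at 14.6 to 16.5 CPM without ARID1A, 7.62 to 11.67 in WT and 7.29 to 8.41 in ΔIDR1b. Its log2 differences from no ARID1A were -0.79 ± 0.20 (called) and -0.38 ± 0.20 (adjusted p = 0.20, not called) in WT with EV and EWS-FLI1, and -1.02 ± 0.20 and -0.91 ± 0.21 in ΔIDR1b, both called. The call in WT was lost without WT EV replicate 2 (-0.55, adjusted p = 0.17) or no ARID1A EV replicate 1 (-0.75, adjusted p = 0.07). The call in ΔIDR1b with EWS-FLI1 was lost once trends with gene length and base composition were removed (-0.29, adjusted p = 0.25). H2BC15, with 0.78 to 3.39 CPM over the 12 libraries, passed no test, and its model of 4265 bases runs 3704 bases past the stem-loop. With EWS-FLI1 it was higher in both rescued states, with 19 and 9 counts without ARID1A, 45 and 27 in WT and 30 and 37 in ΔIDR1b. With EV it was lower in both, with 28 and 32, 23 and 18, and 18 and 15 counts.

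H2BC7 was at 0.43 to 1.27 CPM without ARID1A and had 0 counts in both ΔIDR1b libraries with EV, which makes it at least 8.25-fold lower there when 3 counts over the group are taken as the floor. With EWS-FLI1, ΔIDR1b had 1 count, and no ARID1A was higher by a ratio of 18.4 (95% counting interval 2.82 to 773). The H2BC7 call against no ARID1A was lost in 3 of 21 alternatives with EV (adjusted p up to 0.07) and in 14 of 21 with EWS-FLI1 (up to 0.25), and that against WT with EV in 15 of 21 (up to 0.33).

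H1-2 was the leading linker histone. It was at 32.3 to 42.2 CPM without ARID1A, 8.26 to 12.9 in WT and 2.99 to 5.41 in ΔIDR1b. Its log2 differences from no ARID1A were -1.61 ± 0.17 in WT and -3.01 ± 0.19 in ΔIDR1b with EV, and -1.94 ± 0.18 and -3.42 ± 0.20 with EWS-FLI1, all called. The other H1 genes tested were far lower. H1-4 had at most 3.37 CPM and was called in ΔIDR1b with EV (-2.50 ± 0.74), a call lost without ΔIDR1b EV replicate 2 (adjusted p = 0.15). H1-3 had at most 2.05 CPM. It was called in ΔIDR1b with EWS-FLI1 only, a call lost without no ARID1A EWS-FLI1 replicate 1 (adjusted p = 0.11) or ΔIDR1b EWS-FLI1 replicate 2 (0.12), and with EWS-FLI1 no ARID1A exceeded ΔIDR1b by a ratio of 14.7 (95% counting interval 4.64 to 74.5).

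Of the H3 genes, H3C10 was at 15.5 to 21.4 CPM without ARID1A, 2.58 to 3.88 in WT and 1.18 to 2.69 in ΔIDR1b. Its log2 differences from no ARID1A were -2.47 ± 0.26 in WT and -3.74 ± 0.29 in ΔIDR1b with EV. H3C2, at 2.17 to 2.90 CPM without ARID1A and 1.13 to 2.23 in WT, was called in ΔIDR1b, where it had 0.29 to 0.71 CPM, and not in WT. H3C1 was at 1.05 to 1.86, 0.30 to 1.28 and at most 0.28 CPM in the 3 states. It was called in ΔIDR1b against no ARID1A with either vector, and these calls were lost without no ARID1A EV replicate 1 (adjusted p = 0.073) or ΔIDR1b EV replicate 1 (0.082), and without ΔIDR1b EWS-FLI1 replicate 2 (0.063). H3C6 had 0.17 to 1.14 CPM with overlapping states and passed no test.

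Of the H2A genes, H2AC6 was at 8.12 to 11.3 CPM without ARID1A, 0.76 to 3.66 in WT and 1.22 to 2.36 in ΔIDR1b, so the 2 rescued states overlapped. H2AC20, which shares its promoter region with H2BC21, was at 4.98 to 6.56, 1.14 to 3.50 and 0.42 to 1.49 CPM. It fell in 3 of the 4 comparisons with no ARID1A, WT with EV being the exception (-0.93 ± 0.40, adjusted p = 0.13). H2AC13 and H2AC11 were called in WT with EWS-FLI1 (-2.05 ± 0.60 and -2.31 ± 0.64) and not with EV (-0.55 ± 0.52 and -0.64 ± 0.56). Both calls were lost without WT EWS-FLI1 replicate 1, at adjusted p = 0.14 and 0.053, and without no ARID1A EWS-FLI1 replicate 2, at 0.074 and 0.067, and that of H2AC13 also without no ARID1A EWS-FLI1 replicate 1 (0.061). In ΔIDR1b with EWS-FLI1 both were called too, the H2AC13 call being lost in 4 of 22 alternatives (adjusted p up to 0.13) and the H2AC11 call in 11 of 22 (up to 0.29). With EV, H2AC13 was called in ΔIDR1b against no ARID1A, at -3.56 to -2.35 over 22 alternatives, all of which kept the call. It was also called there against WT, at -3.01 to -1.79, a call lost in 2 of 22. H2AC15 and H2AC18 passed no test.

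The H4 genes were the scarcest class. H4C11 was at 1.49 to 4.01 CPM without ARID1A and 0.07 to 0.76 in the other 8 libraries, and no ARID1A exceeded ΔIDR1b with EWS-FLI1 by a ratio of 26.9 (95% counting interval 8.82 to 134). Of its 50-base windows 81.2% occur in H4C12 too, so its counts are uncertain. Its log2 difference in WT with EWS-FLI1 was called, ranged from -4.15 to -1.83 over 22 alternatives, and lost the call in 2 of them. H4C5 was called with EWS-FLI1 in WT (-2.39 ± 0.79) and ΔIDR1b (-3.57 ± 0.88), and H4C9 in ΔIDR1b with EV (-2.40 ± 0.92). The H4C5 call in WT was lost without no ARID1A EWS-FLI1 replicate 1 (adjusted p = 0.29) or 2 (0.052) or WT EWS-FLI1 replicate 1 (0.15), and the H4C9 call in 11 of 22 alternatives, among them without no ARID1A EV replicate 2 (adjusted p = 0.36) or ΔIDR1b EV replicate 1 (0.14) or 2 (0.21).

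**Figure D3:**
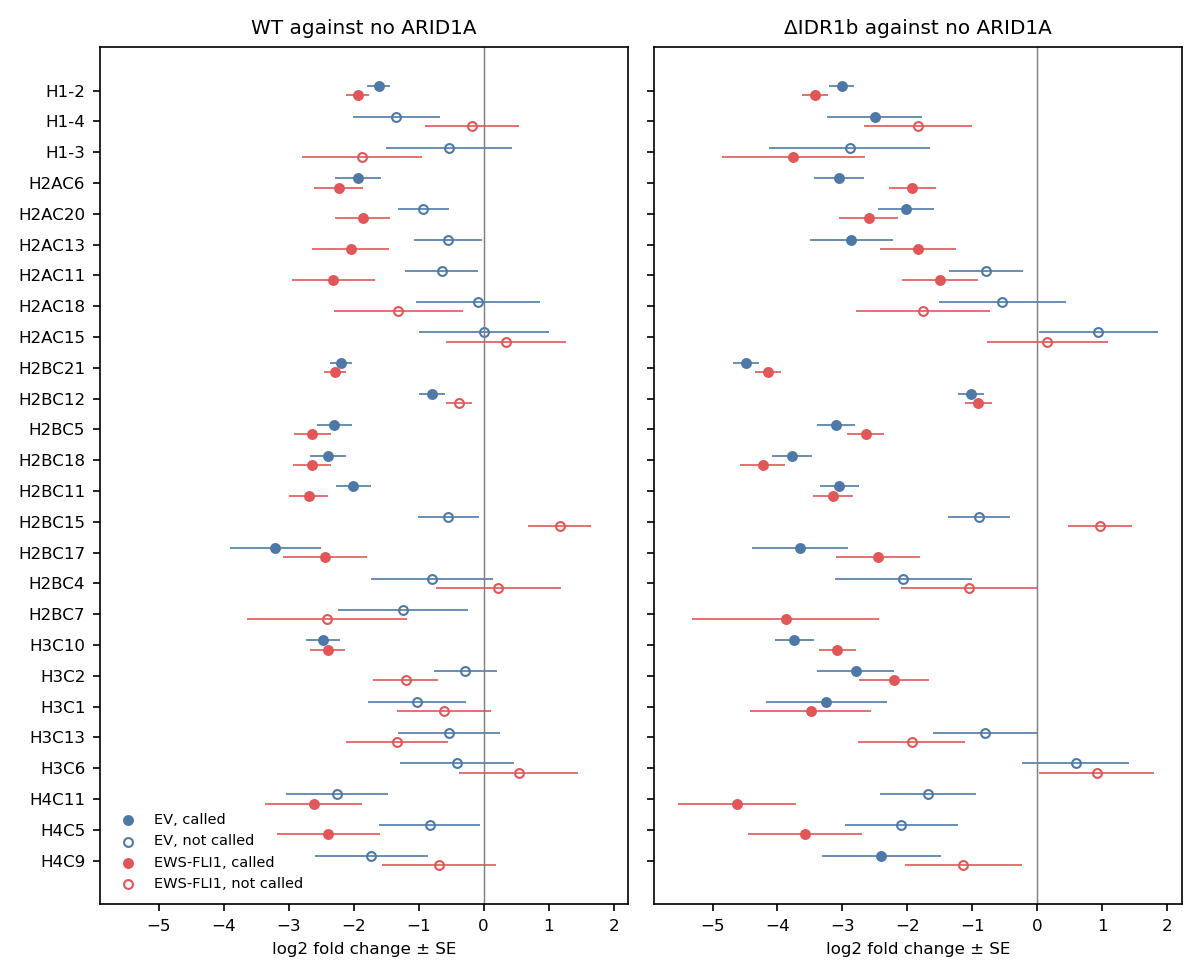
Log2 fold change with its SE (x axis) of the 26 tested histone genes (y axis, by class) in WT (left) and ΔIDR1b (right) against no ARID1A, with EV in blue and EWS-FLI1 in red, filled where called. H2BC7 in ΔIDR1b with EV has no count and is not drawn. All filled points lie left of 0.

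EWS-FLI1 against EV gave 0 histone calls in each ARID1A state and in the average over states. Among all genes tested, 0.0442%, 0.221% and 0.172% were called in no ARID1A, WT and ΔIDR1b, and 0.466% in the average. At an unadjusted p under 0.05, 1, 5, 3 and 4 of the 26 genes passed, and DESeq2 also called 0. H1-2 had the smallest p in the average contrast (-0.40 ± 0.11, adjusted p = 0.14), and H2BC21 was at -0.31 ± 0.11 (adjusted p = 0.37). With a term for replicate number within each vector, edgeR called both in the average. H1-2 was then at -0.41 (edgeR adjusted p = 0.037) and H2BC21 at -0.33 (adjusted p = 0.044). Without WT EWS-FLI1 replicate 1 both were called, H2BC21 at -0.49 (adjusted p = 0.0013) and H1-2 at -0.45 (adjusted p = 0.046). The 3 interactions, each the difference between 2 states in the response to EWS-FLI1, gave 0 histone calls with edgeR and with DESeq2, against 0.0245%, 0.0196% and 0% of all genes, and 1, 3 and 2 genes passed an unadjusted p under 0.05. For H2BC21 the interaction of WT with no ARID1A was -0.09 ± 0.24.

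Most H2A and H2B genes stand head to head. Of the 66 genes, 22 form 11 such pairs with at most 250 bases between their starts. H2BC21 had 19.3 CPM per kilobase and its partner H2AC20 5.90, H2BC12 had 22.6 and H2AC12 0.50, and neither H2AC1 nor H2BC1 had a count. RefSeq promoters (GRCh38.p14, 250 bases before to 50 after the start) matched 61 of the 66 genes. Words were searched on both strands. The octamer word ATTTGCAT was in 73.3% of the H2A and 82.4% of the H2B promoters, in 0% of those of H1, H3 and H4, and in 1.77% of all 35116 promoters. CCAAT was in 85.2% of the histone promoters (34.6% of all) and TATAAA in 68.9% (11.5% of all). GGAAGGAA, a repeat of the core ETS word to which FLI1 binds, was in 1.64% of the histone promoters and 3.67% of all. A word is a match of letters and not a bound site. The stretches between the starts of 2 pairs are shown because their H2B genes are both abundant but fell to different depths. They are read on the minus strand, in the direction of the H2B gene, with the first 3 of these words in capitals on either strand.
H2BC21 to H2AC20 (chr1:149886683-149886917): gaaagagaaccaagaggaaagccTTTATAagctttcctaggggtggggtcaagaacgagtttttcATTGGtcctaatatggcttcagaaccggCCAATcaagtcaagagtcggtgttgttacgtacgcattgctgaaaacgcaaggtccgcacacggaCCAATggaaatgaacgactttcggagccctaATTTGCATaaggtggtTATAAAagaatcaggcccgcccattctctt
H2BC12 to H2AC12 (chr6:27146856-27147105): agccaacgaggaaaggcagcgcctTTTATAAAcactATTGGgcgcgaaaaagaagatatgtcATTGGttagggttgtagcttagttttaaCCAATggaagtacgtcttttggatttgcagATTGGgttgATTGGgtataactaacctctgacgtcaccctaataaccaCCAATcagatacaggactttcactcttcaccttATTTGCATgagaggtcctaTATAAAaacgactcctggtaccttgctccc
All 3 words occur in both.

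Short genes as a whole were lower in ΔIDR1b, which bears on these values because 19 of the 26 tested histone genes have at most 1000 exonic bases. In ΔIDR1b against no ARID1A with EV, 21.9% of the 2631 other tested genes of that length were called lower and 2.32% higher, with a median log2 difference of -0.65. Of the 222 such genes with at least 5 CPM, 45.5% were called lower, at a median of -0.46. The 19 short histone genes had a median of -2.40, and 11 of them fell. In WT with EV the other short genes had a median of -0.35 (4.03% called lower) and the 19 histone genes -0.83, with 4 called. In ΔIDR1b against WT, 12.4% (EV) and 11.1% (EWS-FLI1) of the 2631 short genes were called lower, at medians of -0.34 and -0.36. Among the 222 with at least 5 CPM these shares were 44.6% and 27.9%. They exceeded the 21.1% and 10.5% of the 19 short histone genes, whose medians were -1.10 and -0.74, and the 30.8% and 15.4% of all 26. The histone genes had no such cut on CPM and many are scarce, so these shares are not of like sets. Medians of the 222 genes were -0.46 and -0.31. When trends of each library with length and base composition were removed, the median of the 26 genes moved from -2.65 to -2.20 in ΔIDR1b with EV and from -0.98 to -0.76 in WT with EV, with 15 and 9 calls. With EWS-FLI1 it moved from -2.33 to -1.78 in ΔIDR1b, with 14 calls in place of 18, from -1.90 to -1.64 in WT, with 13, and from -0.64 to -0.36 in ΔIDR1b against WT, with 4. What part of the histone values goes with length beyond these trends was not tested.

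Genes of related function were described from lists. The list of replication-independent histone genes, whose mRNAs are as a rule adenylated, also holds H2BU1, H3-4 and H4-16, whose place there is uncertain. Without these 3, 11 were tested, and 3, 5, 7 and 7 fell in WT with EV and EWS-FLI1 and in ΔIDR1b with EV and EWS-FLI1, with 0 higher. With them the counts were 4, 6, 8 and 8 of 14. The shares of all genes in these comparisons are those given above, with 5.19%, 8.36%, 16.8% and 17.9% lower and 6.5%, 9.72%, 16.4% and 18.1% higher, and they apply to the lists below as well. H3-3B, which encodes the replacement histone H3.3, differed by -0.53 ± 0.09 in WT and -1.22 ± 0.09 in ΔIDR1b with EV, both called. H2BU1, which RefSeq names as a member of the H2B clusters (H2BC26), differed by -2.46 ± 0.17 and -3.30 ± 0.18, from 69.3 CPM without ARID1A to 12.6 and 7.0. MACROH2A1 passed no test. Medians of the 11 genes were -0.23, -0.35, -0.74 and -0.66.

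All 32 factors of histone transcription and 3′ processing were tested. In the same 4 comparisons 1, 4, 9 and 8 rose and 1, 2, 5 and 6 fell, with medians between 0.02 and 0.12. The falls in ΔIDR1b are near the share of all genes. SLBP, the stem-loop binding protein, was at 108 CPM without ARID1A, 130 in WT and 107 in ΔIDR1b with EV and passed none of the 4 tests. CASP8AP2, a cofactor of histone transcription, rose by 0.64 in ΔIDR1b with EV, and SNRPB, a core protein of spliceosomal and U7 particles, fell by 1.02. Of 50 genes of S phase and DNA replication, 9, 12, 22 and 21 rose and 2, 2, 7 and 10 fell, the falls in ΔIDR1b again near the share of all genes. FEN1, the flap endonuclease, rose by 0.95 ± 0.11 in WT and by 1.00 ± 0.11 in ΔIDR1b with EV. Of 30 G2 and mitosis genes, 3, 5, 4 and 5 rose and 0, 2, 5 and 5 fell, in ΔIDR1b near the share of all genes in both directions.

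Of 30 RNAs without a poly(A) tail only 6 passed the filter, and their share bears on how much tail-less RNA entered each library. Their summed level was 73.4 to 170 CPM without ARID1A, 105 to 124 in WT and 51.8 to 104 in ΔIDR1b, with overlapping states. The 6 RNAs had median log2 differences of 0.00, -0.51, -1.26 and -1.84 in WT with EV and EWS-FLI1 and in ΔIDR1b with EV and EWS-FLI1, and 2, 1, 1 and 3 of them fell, with 0 higher, so in ΔIDR1b their medians lay below 0 as those of the histone genes did. SNORA73B, a small nucleolar RNA, differed by -1.35 ± 0.30 in WT and -3.25 ± 0.35 in ΔIDR1b with EV, both called, while RN7SL1, the signal recognition particle RNA, passed no test. The part of tail-less RNA in the histone values was not tested. Within the 4 clusters, 6 other genes were tested, among them H2BC19P and H2BC20P, which are H2B pseudogenes. In ΔIDR1b, 3 of the 6 fell and 0 rose with EV, and 4 fell and 1 rose with EWS-FLI1, and both pseudogenes fell with either vector.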

How the data were processed

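The authors deposited counts of fragments per gene name, made per the file headers with featureCounts 2.0.1 on exons of GENCODE 41 (GRCh38.p13), without strand, multi-mapping or overlapping reads. Per the submitters' processing notes STAR, SAMtools and edgeR were also used; the aligner's version is not given in the sources used here. Histone genes with shared sequence therefore lose reads. Here 12 libraries were fitted together with edgeR 4.0.16 (limma 3.58.1, R 4.3.3): filterByExpr (minimum count 10, total 15), TMM scaling, 1 mean per group, 13 contrasts, 2-sided quasi-likelihood F-tests, Benjamini-Hochberg adjustment. DESeq2 1.42.0 was an alternative. CPM are TMM-scaled. A count of 0 allows up to 3 counts, 0.208 to 0.256 CPM per library, and intervals and floors cover counting error only. Values in all libraries were due for the 2 genes per class with the highest CPM per kilobase and, per class and state comparison, the called gene with the largest change; H2BC15, H2AC15, H2AC18 and H3C6 were added after their values were seen. Genes correlated with the set are not named because libraries cluster by state. On simulated data (WT against no ARID1A with EV, 19513 genes), 71% of genes changed by 1 on the log2 scale and 91% of those changed by 2 were recovered, with 7 false calls. The changed genes were drawn from those with a mean over 1 CPM. These rates therefore do not cover scarcer genes such as H2BC7, with a mean of 0.34 CPM. Members and lists were chosen with earlier results of these data known. Removal of length and composition trends was chosen after seeing the data. Sequences came from GENCODE 29 and RefSeq, not from the counting release.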

Additional observations from a re-analysis of the deposited data

How the results depend on the processing

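Leaving out 1 library at a time gave 8 to 10 histone calls in WT against no ARID1A with EV (9 with all libraries), 8 to 14 with EWS-FLI1 (13), 13 to 17 and 15 to 20 in ΔIDR1b against no ARID1A with EV (16) and EWS-FLI1 (18), and 6 to 10 and 3 to 5 in ΔIDR1b against WT (8 and 4). The 8 with EWS-FLI1 came without WT EWS-FLI1 replicate 1, and without it H2AC6 was called higher in ΔIDR1b than in WT with EWS-FLI1 (1.55). For EWS-FLI1 against EV, leaving out 1 library gave 0 to 1 calls in WT, 0 to 2 in the average, 0 in no ARID1A and ΔIDR1b, and 0 in the interactions. With only the libraries compared, ΔIDR1b against WT with EWS-FLI1 gave 2 calls. The replicate block within each vector gave 1 call for EWS-FLI1 in WT (H2BC21) and 2 in the average (H2BC21 and H1-2), with or without removal of length and composition trends. Equal replicate numbers are not said to share a batch. Differences between replicates 1 and 2 correlated at r = 0.081 to 0.343 within a vector and -0.166 to -0.006 across vectors over 12290 genes. All correlations within a vector were positive, so replicate differences were partly shared there, and the cause was not tested. The main fit holds no replicate term because the labels name no pairing. With the block within each vector, ΔIDR1b against WT with EV gave 11 calls in place of 8. The block changed no other count of calls by over 1.5 times, and the same held for 2 other scalings, no filter, DESeq2 and a log2 limit of 1. Scaled to plain library totals, summed histone CPM were 278 (no ARID1A, EV), 39.0 and 38.5 (ΔIDR1b, EV and EWS-FLI1). In the TMM scaling of the main fit, sums without H2BC21 were 169, 153, 57.3, 48.6, 31.6 and 31.3 CPM. These are for no ARID1A, WT and ΔIDR1b, EV before EWS-FLI1 in each. No call of a named gene reversed. Genes under 1 CPM rest on few counts, and the cause of lost calls was not tested.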
